A study of Mus musculus with 12 samples.

Results

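The Nrf2 antioxidant genes described here are a set of 10 genes, taken by their symbols from the 14851 genes of the deposited tables: Nfe2l2, Keap1, Slc7a11, Gclc, Gclm, Gsr, Txnrd1, Srxn1, Nqo1 and Hmox1. All 10 were found, and all 10 passed the filter on low values in every comparison. The first encodes the transcription factor Nrf2, the second its sensor, and the other 8 are target genes. Their mRNA was measured by RNA-sequencing in 12 libraries of mouse 562 cells, with 3 libraries of control cells and 3 of each of the knockouts (KO) of Fip200, Atg5 and Atg7. The comparison asks whether the loss of autophagy genes came with higher mRNA of Nrf2 targets in these tumor cells.

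562 cells are a spontaneously immortalized line grown from cutaneous vascular tumors of a C57BL/6 mouse, in which tamoxifen had activated an endothelial Scl-Cre to delete both floxed Tsc1 alleles. All 4 groups therefore lack Tsc1, a brake on the growth kinase complex mTORC1, and the control cells, labelled wildtype, are wild type only for the autophagy genes. The KO cells were made with lentiCRISPR v2 and puromycin selection, and the control cells carried a guide against EGFP by the study's methods. The study describes more than 1 Fip200 KO line, and the labels do not say which line a library came from. Fip200, encoded by Rb1cc1, is part of the ULK1 complex that starts autophagy, while Atg5 and Atg7 serve in the lipid conjugation of the ATG8 proteins. The labels give the tissue as lymphatic endothelial cells. All 8 pan-endothelial markers, Pecam1 and Cdh5 among them, were present at 0.5 RPKM or more in every library, but of the lymphatic markers only 3 of 6 reached that level in every library of each KO group.

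Under resting conditions Keap1 bridges Nrf2 to a Cul3 ubiquitin ligase, and Nrf2 is degraded. Oxidants and electrophiles modify cysteines of Keap1, Nrf2 then accumulates, pairs with small Maf proteins and binds the antioxidant response element (ARE) of its target genes. These genes supply cystine, glutathione, thioredoxin and haem breakdown. The autophagy receptor p62, encoded by Sqstm1, binds Keap1 and is itself degraded by autophagy, so that p62 that builds up without autophagy can release Nrf2 from Keap1. Several targets answer to other factors too, such as Atf4 at Slc7a11 and Bach1 at Hmox1.

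The promoter sequences of 2 genes that moved in opposite directions in Atg5 KO cells are shown for the elements they carry. RefSeq promoter windows of GRCm38.p6, which run from 250 bases before a listed start to 50 bases after it, were available for 7 of the 10 genes, not for Hmox1, Gclc and Gsr. An ARE core, TGACNNNGC on either strand, stood in the windows of 4 of these 7 genes, and it stood in those of 13.99% of all 27025 genes, or in 12.4% of all 32851 windows. The windows of Keap1, Nqo1 and Slc7a11 held none. The window of Slc7a11 instead held 2 copies of an amino acid response core, TGATGNAA, which 3.97% of all windows hold and which binds Atf4 in known target genes. In Atg5 KO cells the genes with an ARE core had log2 fold changes of -0.31 (Nfe2l2), 0.75 (Gclm), 0.32 (Txnrd1) and 0.06 (Srxn1). Those without one had 0.50 (Keap1), -0.38 (Nqo1) and -1.25 (Slc7a11). Whether these elements have a part in the changes was not tested. Below, capitals mark the ARE core in the Gclm window (chr3:122245307-122245606, plus strand) and the amino acid response cores in the Slc7a11 window (chr3:50443564-50443863, minus strand), each read 5′ to 3′ along the gene.
Gclm: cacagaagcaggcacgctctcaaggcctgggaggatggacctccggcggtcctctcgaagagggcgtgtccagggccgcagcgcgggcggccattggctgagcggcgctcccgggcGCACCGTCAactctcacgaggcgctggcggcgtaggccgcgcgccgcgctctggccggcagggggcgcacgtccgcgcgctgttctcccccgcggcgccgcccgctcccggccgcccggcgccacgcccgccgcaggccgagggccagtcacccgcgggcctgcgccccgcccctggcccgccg
Slc7a11: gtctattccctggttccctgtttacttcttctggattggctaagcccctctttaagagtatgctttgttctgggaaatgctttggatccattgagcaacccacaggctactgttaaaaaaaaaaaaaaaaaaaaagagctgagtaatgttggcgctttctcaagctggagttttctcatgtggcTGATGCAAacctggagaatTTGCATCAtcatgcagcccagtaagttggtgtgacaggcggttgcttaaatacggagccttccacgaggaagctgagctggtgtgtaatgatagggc

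The ARE cores of the other genes are shown with 8 bases on each side, again with the core in capitals and read along the gene. Txnrd1 has 3 listed starts, and only the window of the second start held a core. The core of Nfe2l2 began 240 bases before the start, that of Gclm 134 bases before, that of Txnrd1 92 bases before, and that of Srxn1 28 bases after it. The Srxn1 window also held 2 AP-1 sites, TGANTCA, at 102 and 45 bases before the start, and 7.81% of all windows hold such a site. None of the 4 ARE cores overlapped an AP-1 site. A match of letters is a description of the window and not a measured binding site.
Nfe2l2 (chr2:75704895-75704903): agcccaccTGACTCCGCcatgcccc
Txnrd1 (chr10:82859114-82859122): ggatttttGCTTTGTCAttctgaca
Srxn1 (chr2:152105552-152105560): agtgggcaGCTAGGTCAgagtgaga

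Between 17266926 and 23629730 reads per library fell on the listed genes, and levels are given as RPKM, that is reads scaled by gene length and by the reads of the library. Where 3 values stand for the KO groups, they follow the order Fip200, Atg5, Atg7. The 3 KO groups were compared with the same 3 control libraries, so their differences from control are not independent. Among the targeted genes, Atg7 fell in Atg7 KO cells (log2 fold change -1.97, limma adjusted p = 0.0216) and also in Atg5 KO cells (-0.95, adjusted p = 0.0083). Rb1cc1 had a log2 fold change of -0.74 in Fip200 KO cells (adjusted p = 0.404). Its level was 5.2, 6.8 and 2.1 RPKM in Fip200 KO replicates 1, 2 and 3, against 6.4, 8.3 and 7.7 in control. The Atg5 gene had a log2 fold change of 0.00 where it was targeted (adjusted p = 0.994). A small insertion or deletion need not lower the mRNA. The paper checked the KO of the 3 genes at the level of protein, by western blot. Library names carry 3 prefixes, FY in control replicate 1 and all Fip200 KO libraries, JG in control replicates 2 and 3 and Atg5 KO replicates 1 and 2, and Yang in Atg5 KO replicate 3 and all Atg7 KO libraries, and their meaning is not given in the labels. No control library has the prefix Yang. Nothing in the labels says that the replicates of a group are separate cultures, so that p-values measure the spread between these libraries. Leukocyte and mesenchymal markers varied between libraries, with summed mesenchymal levels of 21.6 to 216 RPKM in control and 17.7 to 291, 114 to 244 and 73.7 to 362 in the KO groups, and summed leukocyte levels, nearly all Cd68, of 34.6 to 91.9 in control and 16.2 to 263, 10.1 to 11.8 and 7.23 to 27.3 in the KO groups. Of the leukocyte markers 3, Ptprc among them, were under 0.5 RPKM in every library. The mesenchymal marker Thy1 was called higher in Atg5 KO and Atg7 KO cells (4.02 and 4.32 on the log2 scale), as was the lymphatic marker Lyve1 (1.25 and 1.11), and the leukocyte marker Cd68 was called lower (-2.26 and -1.70). Also called higher were the pan-endothelial Cdh5 and Kdr (1.28 and 1.35) and the mesenchymal Acta2 (1.496) in Atg5 KO cells and the mesenchymal Col1a2 (1.64) in Atg7 KO cells. Summed pan-endothelial levels ran from 1129 to 2717 RPKM in control. Control replicate 2 was the lowest control library for Cdh5 (116 RPKM, against 310 and 271) and Kdr (15.2, against 65.3 and 34.7). Other mesenchymal markers had negative values that did not pass, Col3a1 in both (-1.49 and -3.58) and Dcn in Atg5 KO cells (-2.88). Of the other lymphatic markers, Reln (-1.09 and -0.37) and Pdpn (-0.18 and -0.12) were negative in Atg5 KO and Atg7 KO cells. Flt4 (0.80 and 0.26) and Prox1 (0.57 and 0.33) were positive. None of these lymphatic markers was called. The part of these markers in the results below was not tested.

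A gene was called where its change reached 2-fold and its adjusted p 0.1, and it is said to have risen or fallen where the adjusted p alone was reached. In Fip200 KO cells limma called 0 of the 10 genes, against 1.98% of all tested genes, 0 passed the adjusted p alone (2.05% of all genes), 2 had an unadjusted p under 0.05, and voom on recovered reads also called 0. The 234 genes behind the 1.98% became 0 without control replicate 2 or 3, 89 without control replicate 1, 143 and 41 without Fip200 KO replicates 1 and 2, and 598 without Fip200 KO replicate 3. In Atg5 KO cells 2 of 10 were called, against 11.2% of all tested genes, and in Atg7 KO cells 2 of 10, against 10.1%. The 1191 genes behind the last share became 576 without control replicate 3, 730 without control replicate 2 and 768 without Atg7 KO replicate 1. The called genes were Slc7a11 and Hmox1 in both, and both were lower than in control, a direction in which 6.94% and 6.81% of all genes were called. By the adjusted p alone, 3 genes were lower and 3 higher in Atg5 KO cells, where 18.7% of all genes were lower and 22.9% higher. In Atg7 KO cells 3 were lower and 2 higher, where 13.7% of all genes were lower and 11.3% higher. The median log2 fold change of the 10 genes was 0.01, -0.03 and 0.03 in the KO groups, and that of all tested genes was 0.02, 0.06 and -0.01. The members lay on both sides of these medians. In bulk libraries such as these, fewer cells that express a gene and less RNA per cell cannot be told apart.

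**Figure D1:**
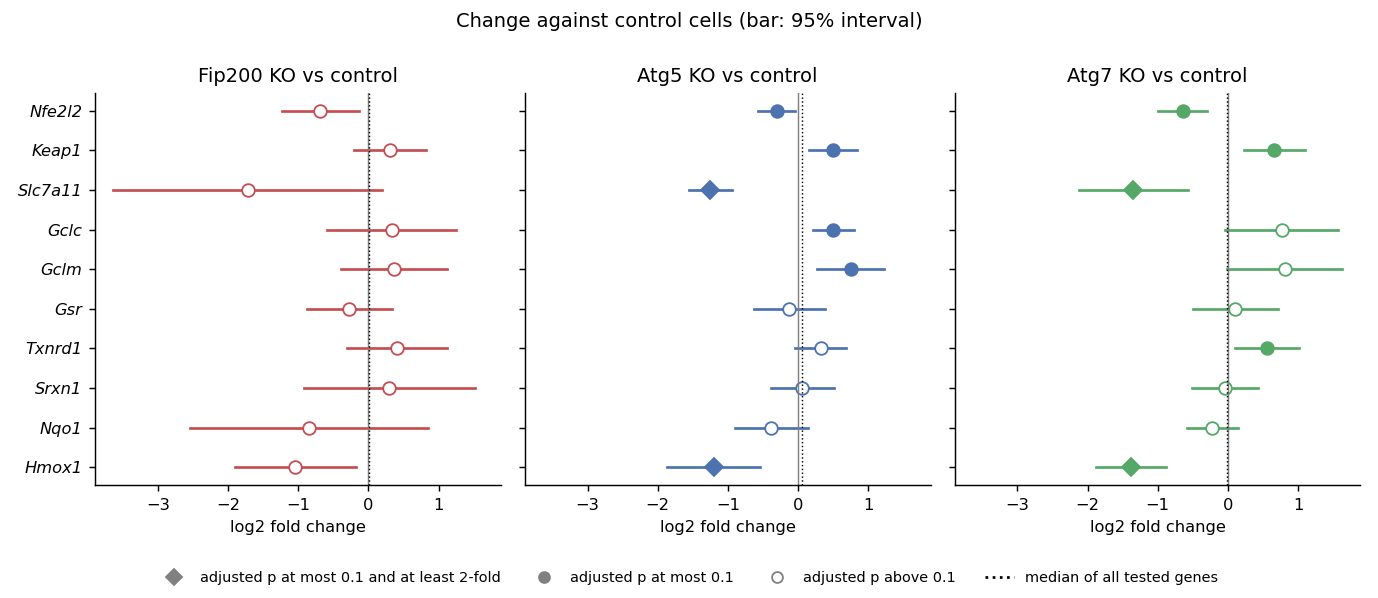
Log2 fold change of the 10 genes (rows) in each KO group against the 3 control libraries, with 95% intervals as bars, filled symbols for an adjusted p of at most 0.1, diamonds where the change also reached 2-fold, and a dotted line at the median of all tested genes. Slc7a11 and Hmox1 are the diamonds in Atg5 KO and Atg7 KO cells, and no symbol is filled in Fip200 KO cells.

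Nfe2l2, which encodes Nrf2 itself, was lower in all 9 KO libraries than in any control library. Its level was 48.6, 60.9 and 54.7 RPKM in the control libraries (mean 54.7 ± 6.14, SD, n = 3). Fip200 KO libraries had 38.4, 39.8 and 24.9 RPKM, Atg5 KO libraries 43.3, 43.7 and 44.9, and Atg7 KO libraries 37.6, 34.3 and 32.5. The groups did not overlap with control, as was so for 12.4%, 22% and 20.4% of all tested genes that lay lower in the 3 comparisons. Nfe2l2 fell by 0.31 (SE 0.11) on the log2 scale in Atg5 KO cells (limma adjusted p = 0.0799) and by 0.64 (SE 0.15) in Atg7 KO cells (adjusted p = 0.0341). In Fip200 KO cells the log2 fold change was -0.69 (SE 0.23), of the same size as in Atg7 KO cells but with a wider spread, and it did not pass the test (adjusted p = 0.226) except with all 12 libraries in the fit (adjusted p = 0.0599). The Atg5 KO value lost its pass in 5 of 6 fits without a library, all but that without control replicate 1, at values of -0.32 to -0.23. It also missed the threshold with all 12 libraries in the fit (adjusted p = 0.282), with a replicate block (0.138) and without a trend (0.110). The Atg7 KO value lost its pass without control replicate 2 (-0.56) or 3 (-0.64). Nrf2 is regulated mainly by protein degradation, which mRNA levels do not show.

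Keap1, the sensor that holds Nrf2 back, was instead higher in every KO library than in any control library. Control libraries had 8.87, 6.59 and 8.29 RPKM (7.92 ± 1.18), the lowest level of the 10 genes. Fip200 KO libraries had 9.31, 11.1 and 9.25 RPKM, those of Atg5 KO 10.8, 11.8 and 11.4, and those of Atg7 KO 14.4, 11.0 and 13.1. Again no KO library overlapped with control, in a direction in which 11.7%, 28.4% and 19.2% of all genes did not overlap. Keap1 rose by 0.50 (SE 0.14) in Atg5 KO cells (limma adjusted p = 0.0400) and by 0.66 (SE 0.19) in Atg7 KO cells (adjusted p = 0.0578), which is 1.41-fold and 1.58-fold. The log2 fold change in Fip200 KO cells was 0.31 (adjusted p = 0.50). The Atg5 KO value lost its pass without Atg5 KO replicate 1 (0.53) or 2 (0.47), and the Atg7 KO value without control replicate 2 (0.54) or 3 (0.70) or Atg7 KO replicate 1 (0.58) or 3 (0.64). The mean level thus ran from control through Fip200 and Atg5 to Atg7 KO cells, but the libraries of neighbouring KO groups in this order overlapped. Keap1 lies on chromosome 9 together with Gclc, and the median of all tested genes on that chromosome was 0.22, 0.23 and 0.25 in the 3 comparisons, so that Keap1 stood 0.09, 0.27 and 0.42 above its chromosome. Whether the chromosome has a part in its level was not tested.

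**Figure D2:**
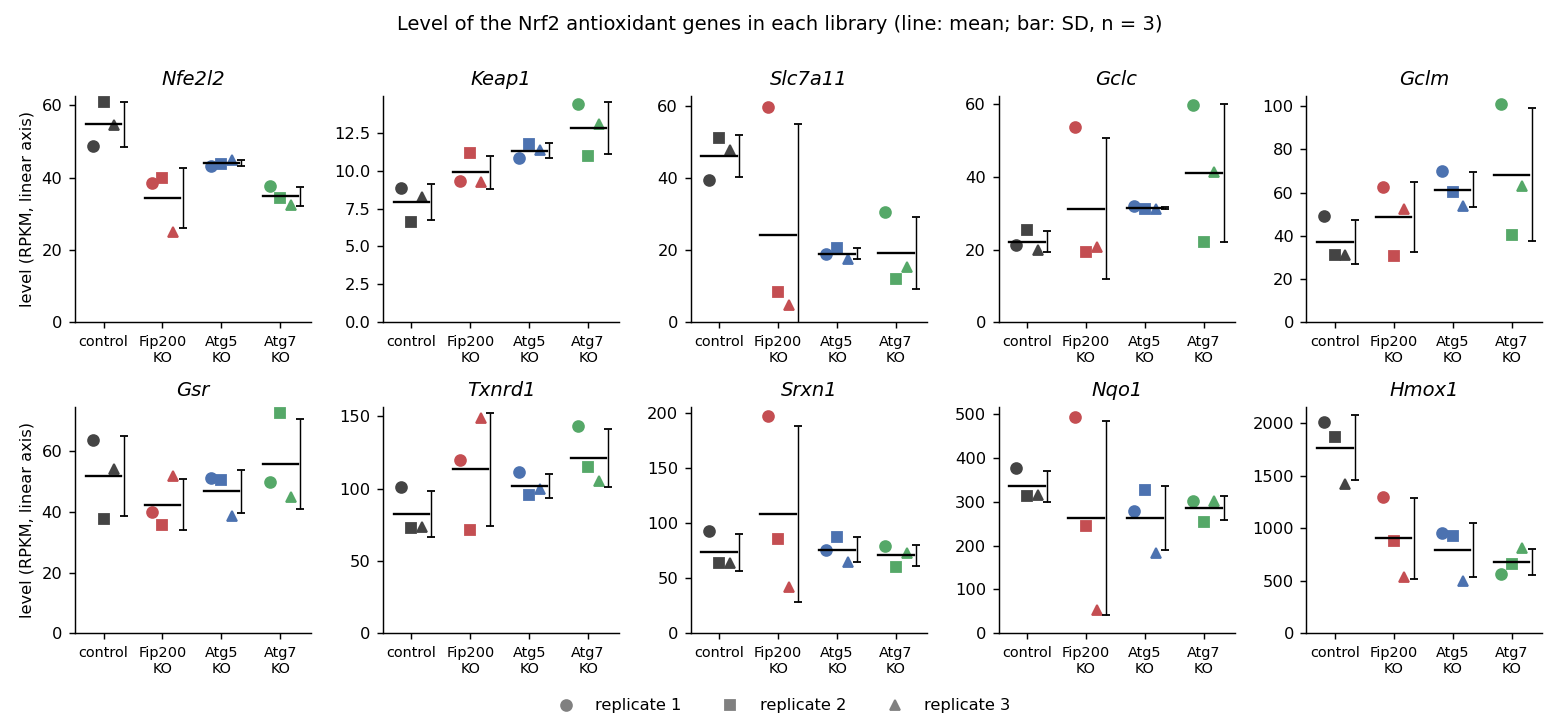
RPKM (linear axes that start at 0) of each of the 10 genes in the 12 libraries, 1 point per library with the replicate number as its shape, a line at the group mean and a bar of 1 SD (cut at 0 for Slc7a11 in Fip200 KO cells). Nfe2l2 and Hmox1 lie lower and Keap1 higher than every control library in all 3 KO groups, and the 3 Fip200 KO libraries spread widest for Slc7a11, Nqo1 and Srxn1.

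Slc7a11, the cystine importer xCT that feeds glutathione synthesis, had the lowest adjusted p of the set, in Atg5 KO cells, and also the widest spread, in Fip200 KO cells. Control libraries had 39.5, 51.1 and 47.6 RPKM (46.1 ± 5.92). Atg5 KO libraries had 19.0, 20.5 and 17.6 RPKM, and Atg7 KO libraries 30.5, 11.9 and 15.2. All 6 lay under the lowest control library, as did 22% and 20.4% of all genes in the respective comparisons. Slc7a11 fell by 1.25 (SE 0.13) on the log2 scale in Atg5 KO cells (limma adjusted p = 0.00372) and by 1.35 (SE 0.33) in Atg7 KO cells (adjusted p = 0.0403), which left 0.42 and 0.39 of the control level. Its promoter window above holds 2 amino acid response cores and no ARE core. Whether these elements, or any outside that window of 300 bases, have a part in its level was not tested.

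In Fip200 KO cells the level of Slc7a11 differed between libraries by an order of magnitude. Replicate 1 had 59.6 RPKM, above every control library, while replicates 2 and 3 had 8.42 and 4.69, far under every control library. The level in replicate 1 was 12.7 times that in replicate 3. The SD between the 3 libraries, 1.86 on the log2 scale, was larger than that of 98.7% of 10497 expressed genes. The log2 fold change of -1.72 (SE 0.82) did not pass the test (limma adjusted p = 0.349), and without replicate 1 it was -2.77 (adjusted p = 0.0484). In Atg7 KO cells the call was lost without control replicate 2 (-1.27), control replicate 3 (-1.32) or Atg7 KO replicate 3 (-1.24), with adjusted p-values up to 0.137. With all 12 libraries in a single fit, in which the Fip200 KO spread enters, Slc7a11 passed neither in Atg5 KO cells (adjusted p = 0.253) nor in Atg7 KO cells (0.215). The median of chromosome 3, where Slc7a11 lies, was -0.29, -0.10 and -0.28 in the 3 KO groups.

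Gclc and Gclm, unlike the importer, were higher in Atg5 KO cells. They encode the catalytic and the modifier subunit of glutamate-cysteine ligase, the limiting step. Gclc had 21.3, 25.5 and 19.8 RPKM in control and 31.9, 31.2 and 31.2 in Atg5 KO libraries, and it rose by 0.50 (SE 0.12, limma adjusted p = 0.0250). Gclm had 49.0, 31.0 and 31.1 RPKM in control and 70.0, 60.1 and 54.0 in Atg5 KO libraries, and it rose by 0.75 (SE 0.20, adjusted p = 0.0349). Both sets of Atg5 KO libraries lay above all control libraries, in a comparison in which 28.4% of all genes did so. The rise of Gclm did not pass without control replicate 3 (0.64, adjusted p = 0.106) or Atg5 KO replicate 1 (0.65, adjusted p = 0.117). With all 12 libraries in the fit neither Gclc (SE 0.39, adjusted p = 0.419) nor Gclm (adjusted p = 0.172) passed in Atg5 KO cells.

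In Atg7 KO cells the means of both subunits were higher than in Atg5 KO cells, but so was the spread. Gclc had 60.0, 22.1 and 41.3 RPKM and Gclm 101, 40.2 and 63.2, with replicate 1 highest and replicate 2 within the control range for both. Their log2 fold changes of 0.77 (SE 0.34) and 0.81 (SE 0.35) did not pass (limma adjusted p = 0.162 and 0.153), though Gclm did with a replicate block (0.0825). Without Atg7 KO replicate 2 they were 1.15 and 1.14, and both passed both thresholds (adjusted p = 0.0194 and 0.0394). In Fip200 KO cells Gclc had 53.7, 19.4 and 20.7 RPKM and Gclm 62.8, 30.8 and 52.6, with log2 fold changes of 0.33 and 0.36 (adjusted p = 0.696 and 0.592). The ratio of Gclm to Gclc per length stayed between 1.17 and 2.54 in all 12 libraries, and control alone covered 1.22 to 2.30.

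Gsr, glutathione reductase, which recycles oxidized glutathione with NADPH, showed no change that passed the test. Its control libraries spread from 37.5 to 63.7 RPKM, and the KO libraries from 35.5 to 72.7, the highest being Atg7 KO replicate 2. The log2 fold changes were -0.27 (95% interval -0.88 to 0.34), -0.12 (-0.63 to 0.39) and 0.11 (-0.50 to 0.71) in the KO groups.

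Of the thioredoxin branch, Txnrd1, the cytosolic thioredoxin reductase, was higher in Atg7 KO cells. Control libraries had 101, 72.5 and 73.7 RPKM and Atg7 KO libraries 144, 115 and 105. Txnrd1 rose by 0.56 (SE 0.19, limma adjusted p = 0.0950), and the groups did not overlap, as for 19.2% of all genes in this direction. This pass was lost without control replicate 2 (0.48) or 3 (0.49) or Atg7 KO replicate 1 (0.43) or 3 (0.65). It was also lost with all 12 libraries in the fit (adjusted p = 0.161), without the filter (0.114), without a trend (0.115) and by voom (0.105). Atg5 KO libraries had 111, 95.3 and 99.5 RPKM with a log2 fold change of 0.32 (adjusted p = 0.154, and 0.48 with a pass without control replicate 1), and Fip200 KO libraries had 120, 71.6 and 148 with 0.41 (adjusted p = 0.521).

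Srxn1, sulfiredoxin, which repairs over-oxidized peroxiredoxins and has 2 AP-1 sites beside its ARE core, stayed near control in Atg5 KO and Atg7 KO cells. Control libraries had 93.0, 63.6 and 64.2 RPKM, Atg5 KO libraries 76.1, 87.6 and 64.3, and Atg7 KO libraries 79.6, 60.6 and 72.7. The log2 fold changes were 0.06 (95% interval -0.39 to 0.50) and -0.04 (-0.51 to 0.43). The direction turned in both comparisons when single libraries were left out. In Fip200 KO cells Srxn1 had 197, 85.5 and 41.8 RPKM, a 4.71-fold span with replicate 1 above and replicate 3 under all control libraries.

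Nqo1, the quinone reductase most used as a readout of Nrf2, did not pass the test in any KO. Control libraries had 377, 312 and 316 RPKM (335 ± 36.2). Atg5 KO libraries had 278, 328 and 184 RPKM (log2 fold change -0.38, limma adjusted p = 0.220), and Atg7 KO libraries 302, 255 and 302 (-0.23, adjusted p = 0.340). The 3 Atg7 KO libraries were all lower than control by a small margin, and 20.4% of all genes were lower without overlap. Fip200 KO libraries had 494, 244 and 53.2 RPKM, so that replicate 1 had 9.28 times the level of replicate 3. The log2 fold change there was -0.84 (SE 0.72, adjusted p = 0.586), and without replicate 3 it was 0.06.

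Hmox1, haem oxygenase 1, which breaks haem down to biliverdin, iron and carbon monoxide, was the most abundant of the 10 genes and was lower in every KO library. With 2011, 1871 and 1419 RPKM it ranked 8 of 14851 genes in control cells (mean 1767 ± 309). Fip200 KO libraries had 1301, 880 and 534 RPKM, Atg5 KO libraries 957, 921 and 494, and those of Atg7 KO 560, 664 and 809. None overlapped with control, as for 12.4%, 22% and 20.4% of all genes in this direction. Hmox1 fell by 1.20 (SE 0.28) on the log2 scale in Atg5 KO cells (limma adjusted p = 0.0222) and by 1.38 (SE 0.21) in Atg7 KO cells (adjusted p = 0.0145), to 0.43 and 0.38 of the control level. In Fip200 KO cells the log2 fold change was -1.04 (SE 0.37, unadjusted p = 0.0239 in the fit of all genes by limma), and its adjusted p was 0.236. With 12 libraries in a single fit, Hmox1 still passed for Atg5 and Atg7 (adjusted p = 0.0517 and 0.0299). Without Atg5 KO replicate 3 the value in Atg5 KO cells was -0.90, under the 2-fold threshold, with an adjusted p of 0.0277.

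Hmox1, Nqo1 and Gsr lie on chromosome 8 by RefSeq, and genes of that chromosome were lower in all KO groups. The median log2 fold change of the 648 to 651 tested genes on it was -0.37, -0.37 and -0.38 in the KO groups. Relative to this median Hmox1 stood at -0.68, -0.84 and -1.002, Nqo1 at -0.48, -0.02 and 0.16, and Gsr at 0.10, 0.24 and 0.49. Nqo1 in Atg7 KO cells and Gsr in Fip200 KO and Atg5 KO cells thereby turned sign. Hmox1 thus lay further down than its chromosome, while Nqo1 in Atg5 KO and Atg7 KO cells lay close to it and Gsr above it. The controls and the Atg7 KO libraries share no name prefix. With the prefix as a term, Hmox1 was at -0.36 (limma adjusted p = 0.882) in Atg7 KO and -0.80 (adjusted p = 0.275) in Atg5 KO cells. None of the 10 genes then passed in any KO. The Atg7 KO value is linked to control only through Atg5 KO replicate 3, the only other library with the prefix Yang. That library had 494 RPKM of Hmox1, the lowest of the Atg5 KO libraries. Within the prefix JG alone, 2 Atg5 KO libraries against 2 control libraries, the log2 differences were -0.80 for Hmox1, -1.30 for Slc7a11, 1.05 for Gclm, 0.48 for Gclc, 0.58 for Keap1, -0.40 for Nfe2l2, 0.49 for Txnrd1 and 0.35 for Srxn1. The libraries overlapped for Nqo1 and Gsr and did not for the other 8 genes, 3 lower and 5 higher. Of all tested genes 33.5% were lower and 40.3% higher without overlap in these libraries. Within the prefix FY, 3 Fip200 KO libraries against 1 control library, all 3 lay under the control library for Hmox1 (log2 difference -1.24), Nfe2l2 (-0.52) and Gsr (-0.60), as for 21% of all genes, above it for Keap1 (0.15), as for 22.1%, and on both sides of it for the other 6, among them Slc7a11 (-1.51) and Gclm (-0.07). For Atg7 KO cells no value within a prefix can be had, since no control library carries theirs.

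**Figure D3:**
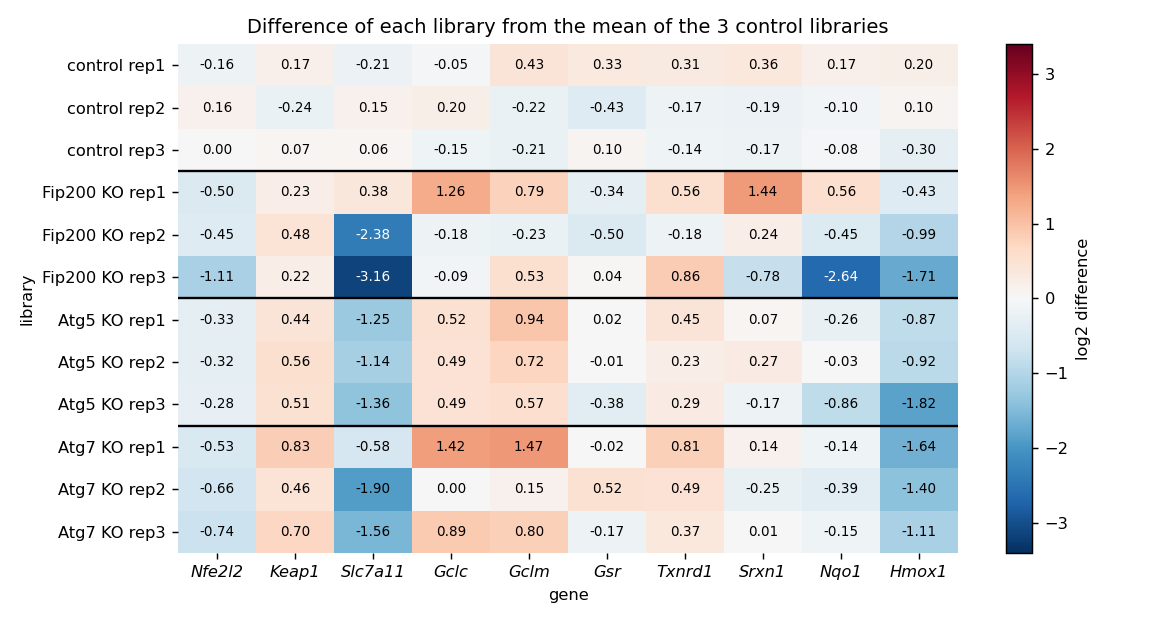
Log2 difference of each library (rows) from the mean of the 3 control libraries for the 10 genes (columns), on a scale from blue (lower) to red (higher) with the values printed. Fip200 KO replicate 1 is red for 6 of the 8 targets and replicate 2 blue for all but 1, whereas the Nfe2l2 and Hmox1 columns are blue in all 9 KO libraries.

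The Fip200 KO libraries did not move together over the 8 targets. Replicate 1 was above all control libraries for 6 targets and under them for 1, with a median log2 difference from the control mean of 0.56. Of all tested genes 36% were above and 33.8% under the control range in that library. Replicate 2 was above them for 0 and under them for 7 (median -0.34), where 33.5% and 35.6% of all genes were, and for Gclc, Gclm and Txnrd1 it was under the lowest control library by less than 1 RPKM. Replicate 3 was above them for 2 and under them for 4 (median -0.44), near the 39.3% and 37.5% of all genes. In replicate 1 Srxn1 stood at 2.68 times and Gclc at 2.42 times the control mean, while in replicate 3 Slc7a11 stood at 0.10 and Nqo1 at 0.16 of it. The spread between the 3 Fip200 KO libraries was larger than the median of all genes (0.40 on the log2 scale) for 7 of the 10 genes, and Nqo1, Slc7a11 and Srxn1 were above the 93rd percentile. The p62 gene Sqstm1 differed in the same libraries, with 727, 194 and 292 RPKM in replicates 1, 2 and 3 and 359, 579 and 374 in control. Some markers of other cell types differed too. The leukocyte marker Cd68 had 263, 19.1 and 15.9 RPKM, in the order of Slc7a11, Nqo1 and Srxn1, and the mesenchymal Thy1 288, 228 and 0.21. Other markers of the same lists did not follow this order. The leukocyte markers Ptprc and Adgre1 had 0 RPKM in all 3 libraries. The mesenchymal Acta2 had 0.90, 1.97 and 15.2 RPKM and Col3a1 1.64, 34.3 and 1.55. Their part in these differences was not tested. Between the Atg5 KO libraries the SD of the 10 genes had a median of 0.15, close to that of all genes (0.148), with 0.02 for Gclc at the low end and 0.54 for Hmox1 at the high end.

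Between the KO groups none of the 10 genes differed at the threshold. In a limma fit of all 12 libraries 0 of 10 were called in each of the 3 comparisons, 0 had an unadjusted p under 0.05, and of all 12233 tested genes 0 were called (0%), with 927, 916 and 562 genes at an unadjusted p under 0.05. A fit by limma voom on the recovered reads also called 0. For both comparisons with Fip200 KO cells the count over all genes rests on Fip200 KO replicate 3, since without it 300 genes were called in Atg5 KO and 402 in Atg7 KO against Fip200 KO cells, still with 0 of the 10. The smallest p was that of Nfe2l2 in Atg5 KO against Fip200 KO cells (unadjusted p = 0.0601 by limma over all genes, adjusted p = 0.654), where all Atg5 KO libraries were above all Fip200 KO libraries, as for 8.44% of all genes. Keap1 in Atg7 KO against Fip200 KO cells followed (adjusted p = 0.678). The differences from control seen in Atg5 KO and Atg7 KO cells are therefore not shown to be absent in Fip200 KO cells.

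The other genes of the pathway were read from 7 lists of 69 genes, 66 of which were in the tables. Of the 10 regulators and partners of Nrf2, none was called in any KO. Sqstm1, which encodes p62, had log2 fold changes of -0.30, -0.51 and -0.17 in the KO groups (limma adjusted p = 0.779, 0.205 and 0.600). By the adjusted p, Atg5 KO cells had 2 lower and 3 higher (20% and 30% of the list, where 18.7% and 22.9% of all genes passed), and Atg7 KO cells 1 and 1 (10% each, against 13.7% and 11.3%). The small Maf gene Maff rose by 0.55 and 0.67 (adjusted p = 0.0462 and 0.0494), and Nfe2l1, the Nrf2 relative that drives proteasome genes, fell by 0.79 and 0.97 (adjusted p = 0.0441 and 0.0459). As with the other lists, 0 genes passed in Fip200 KO cells.

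Of 13 tested genes of glutathione synthesis, use and export, 4 fell and 1 rose in Atg5 KO cells and 2 fell in those lacking Atg7. In Atg5 KO cells 30.8% of the list was thus lower and 7.69% higher, against 18.7% and 22.9% of all genes, and in Atg7 KO cells 15.4% was lower, against 13.7%. The list medians were -0.46, -0.44 and -0.28 in the 3 comparisons. Abcc4, an exporter of organic anions, had 31.1, 24.3 and 21.9 RPKM in control and 10.0, 8.78 and 10.0 in Atg5 KO cells, and it fell by 1.36 (limma adjusted p = 0.00419). Glrx, glutaredoxin, fell by 1.03 in Atg5 KO cells (adjusted p = 0.0046) and by 0.76 in Atg7 KO cells (adjusted p = 0.0853), and the first value was under 2-fold without control replicate 3 (-0.94) or Atg5 KO replicate 2 (-0.96). The glutathione transferase gene Gstm1 rose by 0.68 in Atg5 KO cells (adjusted p = 0.0157).

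Among 11 thioredoxin, peroxiredoxin and superoxide enzymes, 3 rose and 1 fell in Atg5 KO cells, 1 rose in those lacking Atg7, and none was called. The shares that rose, 27.3% and 9.09%, lay near the 22.9% and 11.3% of all genes. Txn1, thioredoxin, the substrate of Txnrd1, had 196, 185 and 235 RPKM in control, 374, 379 and 409 in Atg5 KO libraries, and 459, 239 and 384 in those of Atg7 KO. It rose by 0.92 (limma adjusted p = 0.0055) and 0.77 (adjusted p = 0.0855). Prdx6 rose by 0.60 and the catalase gene Cat fell by 0.52 in Atg5 KO cells (adjusted p = 0.0100 and 0.0279). The list medians were 0.00, 0.10 and 0.14.

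Of 6 genes of NADPH supply, 2 fell and 1 rose in Atg5 KO cells and 1 fell and 1 rose in Atg7 KO cells. Against the 18.7% and 22.9% of all genes these are 33.3% and 16.7% of the list in the former, and against 13.7% and 11.3% they are 16.7% each in the latter, where a single gene makes 16.7%. Idh1, cytosolic isocitrate dehydrogenase, had 46.7, 76.1 and 65.5 RPKM in control, 19.8, 23.5 and 26.9 in Atg5 KO libraries, and 14.1, 12.7 and 27.0 in those of Atg7 KO. It was called in both, at -1.39 and -1.83 (limma adjusted p = 0.00664 and 0.0187), and with all 12 libraries in the fit the first missed the threshold (adjusted p = 0.102). Pgd, an enzyme of the pentose phosphate pathway, rose by 0.66 and 0.85 (adjusted p = 0.0126 and 0.0558). The list medians were -0.23, -0.25 and 0.16.

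In haem and iron handling, 3 of 7 genes fell in Atg5 KO cells, 0 in Atg7 KO cells and none rose. Of all genes 18.7% and 13.7% fell and 22.9% and 11.3% rose in these comparisons. The list medians were -0.41, -0.39 and -0.39. Blvrb, a biliverdin reductase that acts after haem oxygenase, had 37.9, 40.3 and 38.9 RPKM in control and 18.4, 22.7 and 14.5 in Atg5 KO cells (-1.08, limma adjusted p = 0.00754, and 0.206 with all 12 libraries in the fit). Without Atg5 KO replicate 3 it was -0.92. Ftl1, the ferritin light chain, fell by 0.70 and Hmox2, the constitutive haem oxygenase, by 0.39 (adjusted p = 0.0385 and 0.0402).

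Of 10 tested genes of quinone, aldehyde and drug metabolism, 5 fell in Atg5 KO cells, and in Atg7 KO cells 3 fell and 1 rose. Lower were thus 50% and 30% of the list, against 18.7% and 13.7% of all genes. Higher were 0% and 10% of the list, against 22.9% and 11.3% of all genes. The list medians of -0.51, -0.79 and -0.70 were the lowest of the 7 lists in each comparison, where all genes had 0.02, 0.06 and -0.01. Called in Atg5 KO cells were the carbonyl reductase gene Cbr3 (-1.83, limma adjusted p = 0.0193), the epoxide hydrolase gene Ephx1 (-1.20, adjusted p = 0.0511) and Osgin1, an oxidative stress response gene on the list (-1.71, adjusted p = 0.00754). Osgin1 had 40.3, 48.8 and 31.5 RPKM in control, 13.6, 14.9 and 7.93 in Atg5 KO libraries, and 18.0, 21.6 and 16.8 in those of Atg7 KO, and it was called in Atg7 KO cells as well (-1.06, adjusted p = 0.0220, and 0.132 with all 12 libraries in the fit). Ephx1 lost its call with all 12 libraries in the fit (adjusted p = 0.335) and without control replicate 2 (-1.08) or Atg5 KO replicate 1 (-0.99) or 2 (-0.95), and the Atg7 KO value of Osgin1 was under 2-fold without control replicate 2 (-0.91) or Atg7 KO replicate 3 (-0.98). Nqo2, the relative of Nqo1, fell by 0.93 and 0.76 (adjusted p = 0.0146 and 0.0606).

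The ATF4 list was read because Slc7a11 is also a target of Atf4. Of its 8 genes 3 fell in Atg5 KO cells (37.5%, against 18.7% of all genes) and none rose, where 22.9% of all genes did. None passed in Atg7 KO cells, where 13.7% of all genes fell and 11.3% rose. The list medians were -0.37, -0.56 and -0.43. The mRNA of Atf4 itself had log2 fold changes of -0.23, -0.03 and -0.16 in the KO groups, and none passed. Ddit3 (-1.59, limma adjusted p = 0.0995) and Chac1 (-1.34, adjusted p = 0.0680) were called in Atg5 KO cells. Both had their highest level in control replicate 2, at 216 and 163 RPKM against 42.7 and 36.0, and 41.8 and 70.1, in the other controls. Ddit3 lost its call without any 1 of the Atg5 KO libraries (-1.66, -1.62 and -1.49), and Chac1 did so too (-1.38, -1.47 and -1.16) and without control replicate 3 (-1.42). Without control replicate 2 the values were -0.77 for Ddit3 and -0.81 for Chac1, both under 2-fold. With all 12 libraries in the fit neither passed (adjusted p = 0.106 and 0.151), nor did they without the filter (0.142 and 0.102). The adjusted p of Ddit3 was also above 0.1 with both other pseudocounts (0.1004 and 0.1005), without a trend (0.110) and by voom (0.128). Phgdh, of serine synthesis, fell by 0.75 (adjusted p = 0.0250).

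**Figure D4:**
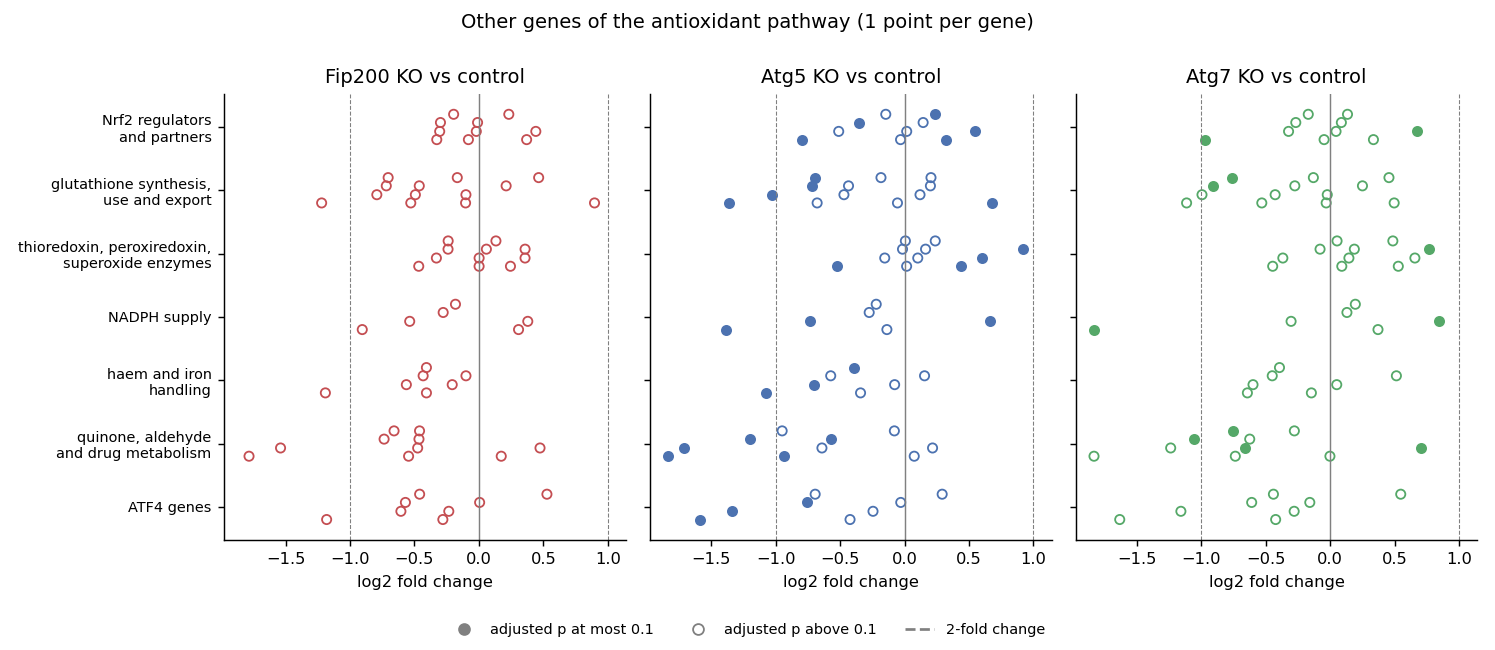
Log2 fold change against control of the tested genes of the 7 pathway lists (rows, 1 point per gene, spread vertically for sight only), filled where the adjusted p was at most 0.1, with dashed lines at a 2-fold change. Genes of quinone, aldehyde and drug metabolism lie mostly to the left in all 3 KO groups, while thioredoxin and peroxiredoxin genes lie around 0, with Txn1 the filled point furthest right in Atg5 KO cells.

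Across the 12 libraries, the genes most like each member were sought among 10487 other genes by the Pearson correlation of log2 levels. The libraries share groups and 3 name prefixes, so the values only describe these 12. Slc7a11 was most like Blvrb (r = 0.961), Cat (r = 0.945) and Lamtor1 (r = 0.934). Blvrb had 49.6, 12.6 and 7.40 RPKM in Fip200 KO replicates 1, 2 and 3, the same order as Slc7a11. Keap1 was most like Snx19, Pgd and Ski (r = 0.976, 0.963 and 0.960), Nfe2l2 like Atat1, Thra and Isca2 (0.956, 0.943 and 0.940), and Hmox1 like Fam193b, Rras and Gpr137b (0.951, 0.947 and 0.946). For Nqo1 the nearest gene was Ehd1 with r = 0.946 but a Spearman rho of 0.594, where Fip200 KO replicate 3 stands apart from the other libraries. Nearest to Gclc, Gclm, Txnrd1, Srxn1 and Gsr were Ints4, 2310057M21Rik, Lyar, Spopl and Tmem47 (r = 0.919, 0.915, 0.929, 0.955 and 0.915). None of these nearest genes was another member, since members were left out of the search.

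**Figure D5:**
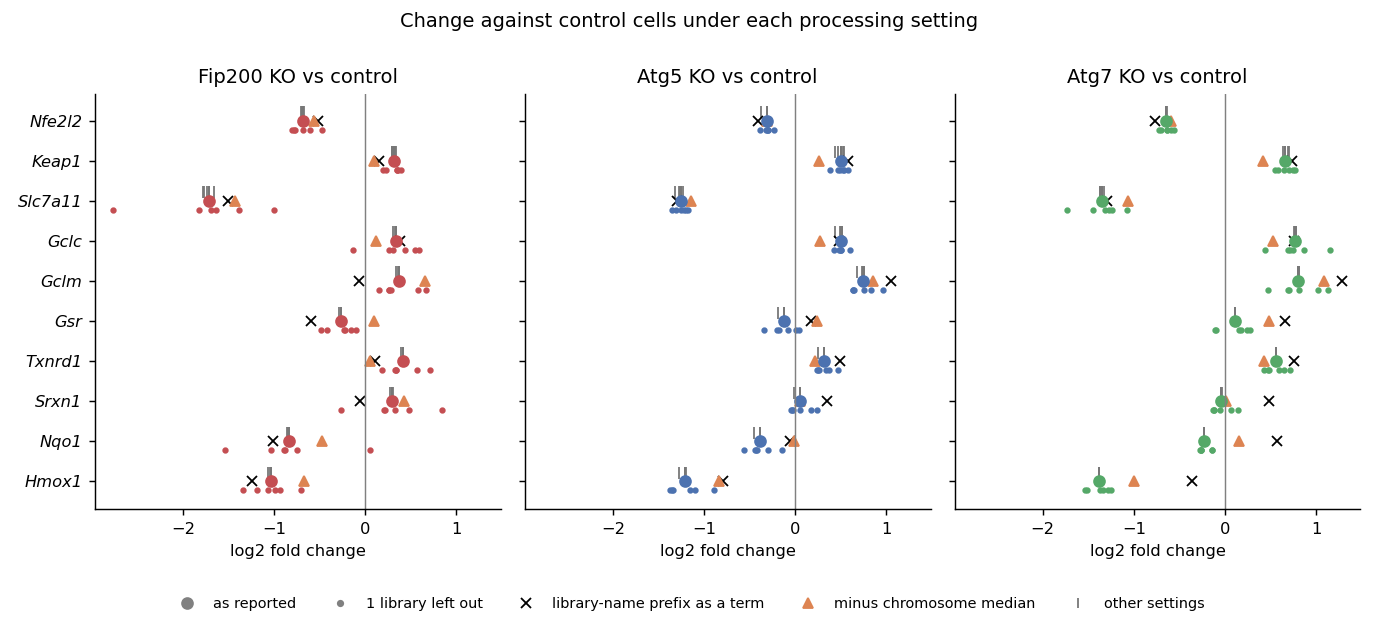
Log2 fold change of each gene against control as reported (large dots), with 1 library left out (small dots), with a term for the name prefix (crosses), minus the median of its chromosome (triangles) and under the other settings (ticks). Slc7a11 in Fip200 KO cells reaches -2.77 without replicate 1, and Hmox1 in Atg7 KO cells moves to -0.36 with the prefix as a term. This last value is linked to control only through Atg5 KO replicate 3.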

How the data were processed

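RNA-sequencing of 562 cells was read from 3 tables, 1 per KO against the same 3 control libraries. Per the paper's methods, directional libraries were aligned with TopHat2, counted with Bioconductor packages and tested with edgeR by the authors. Versions, genome build and annotation are not given in the sources used here. The authors deposited 1 value per gene and library, taken from the values to be RPKM, and group means, a signal on the scale of normalized reads. Fold change, its log2, p and adjusted p columns of the authors were not used. The RPKM gave whole reads for 100% of genes under 200 reads (tolerance 0.05). Each of the 10 genes had 950 reads or more in every library (the fewest for Slc7a11 in a Fip200 KO library).

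Genes with RPKM of at least 0.5 in at least 3 compared libraries were tested with limma 3.58.1 (R 4.3.3) on log2(RPKM + 0.5), with a trend, over all tested genes with Benjamini-Hochberg adjustment. Fold changes are on that scale. KO against control used a fit of 6 libraries, and KO against KO a fit of 12. Atg5 KO replicates 1 and 2 were by far the closest pair of a group (chi-square per degree of freedom of their reads 8.66, against 51.4 to 315.7 for the other pairs, and 1 for counting error alone). They were kept as 2 libraries. The paper speaks of 3 independent mRNA replicates for each KO, and its reporting summary of biological triplicates for experiments in general. Neither says whether these 2 libraries are separate cultures. The test was also run on simulated reads with known changes, and no number from that run is given here. Members and lists were chosen with earlier results of these data known. Named were the 10 members, every list gene called in at least 1 KO with Sqstm1 and Atf4, and the 3 most correlated genes of each member (all 3 printed for 4 members). List genes with an adjusted p of at most 0.1 but under 2-fold were named as examples chosen after their values were seen. Python 3.11.15, pandas 2.3.3 and matplotlib 3.10.9 were used for tables and figures.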

Additional observations from a re-analysis of the deposited data

How the results depend on the processing

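Of the 300 log2 fold changes of single genes under 10 other settings (2 pseudocounts, 2 filters, another scaling, another set of libraries, the name prefix, the block, no trend, voom), 270 kept their direction and their side of the threshold, 22 lost the pass, 2 gained it and 6 reversed. With all 12 libraries in the fit, 1 of the 10 genes each was called in Atg5 KO and Atg7 KO cells instead of 2. Of all tested genes this fit called 1051 and 1110 of 12233, against 1331 of 11833 and 1191 of 11784 in the fits of 6 libraries. With the name prefix as a term, 0 of the 10 genes were called in Atg5 KO or Atg7 KO cells, and 5 values reversed without passing. They were -0.067 for Gclm and -0.0615 for Srxn1 in Fip200 KO and 0.17 for Gsr in Atg5 KO cells. In Atg7 KO cells they were 0.57 for Nqo1 and 0.48 for Srxn1. The Atg7 KO values with this term are linked to control only through Atg5 KO replicate 3. Srxn1 in Atg5 KO cells was -0.0099 by median-of-ratios scaling. Minus the chromosome median, 21 of 30 values moved by less than 1 SD between the KO libraries.

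Without single libraries, 0 to 1 members were called in Fip200 KO (1 without Fip200 KO replicate 1) and 1 to 2 in Atg5 KO cells (1 without Atg5 KO replicate 3). In Atg7 KO cells 1 to 4 were called (4 without Atg7 KO replicate 2, 1 without control replicate 2 or 3 or Atg7 KO replicate 3). Of all tested genes, the fit without Fip200 KO replicate 1 called 143 of 11657, against 234 of 11803 with none left out. The fit without Atg5 KO replicate 3 called 1164 of 11703, against 1331 of 11833. In Atg7 KO cells 1514 of 11640 were called without Atg7 KO replicate 2, against 1191 of 11784. Without control replicate 2 or 3 or Atg7 KO replicate 3 they were 730 of 11528, 576 of 11539 and 1114 of 11627. Of the 180 values of members without single libraries 12 reversed, with ranges of -1.55 to 0.0557 (Nqo1), -0.13 to 0.59 (Gclc) and -0.27 to 0.84 (Srxn1) in Fip200 KO cells. In Atg5 KO cells the ranges were -0.0493 to 0.24 (Srxn1) and -0.34 to 0.0411 (Gsr), and in Atg7 KO cells -0.13 to 0.14 (Srxn1) and -0.11 to 0.27 (Gsr). None of these values passed. The cause was not tested. The list genes were put through the same settings after their values were seen. With the prefix as a term none of the called list genes passed, and Atf4 was 0.078 in Atg5 KO and 0.176 and Sqstm1 0.515 in Atg7 KO cells. Without single libraries Sqstm1 ran from -0.84 to 0.112 in Fip200 KO and from -0.295 to 0.049 in Atg7 KO, and Atf4 from -0.117 to 0.084 in Atg5 KO and from -0.315 to 0.030 in Atg7 KO cells, and none of these passed.

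Replicate numbers are shared between groups. Same-numbered libraries correlated from -0.46 to 0.19 in their deviations from the group means, 2 of 18 pairs above 0.1, and 1 of 12 libraries correlated best with its own number, so the numbers were not taken as pairs. With a replicate block, 0, 2 and 2 of the 10 genes were called in the Fip200, Atg5 and Atg7 comparisons with control, as without it, and 0 between KO groups. By the adjusted p alone it changed Nfe2l2 in Atg5 KO and Gclm in Atg7 KO cells, as given beside them, and no other of the 30 values against control. Over all genes 93, 1322 and 1071 were called with it against 234, 1331 and 1191 without. Voom on recovered reads called 187, 1639 and 1423, the fit with the prefix as a term 47, 663 and 38, and in Fip200 KO cells the fit of all 12 libraries 608 and that without a filter 134. With 3 libraries a group, a change has to exceed a wide spread in Fip200 KO cells.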
